A study of Mus musculus with 12 samples.

Results

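The small structural RNA repeats are the genomic copies of noncoding RNA genes that repeat annotation files under the classes snRNA, scRNA, srpRNA and RNA. All rows of the count table with one of these 4 classes were taken and summed by repeat name. They made up 12452 of 5138235 repeat copies and 20 of 1554 repeat names (subfamilies below). Class snRNA held 3004 copies (U1 to U8, U13, U13_, U14 and U17), class scRNA 8320 (BC1_Mm, 4.5SRNA and the Y RNAs HY1, HY3, HY4 and HY5), class srpRNA 437 (7SLRNA) and class RNA 691 (7SK). At least 1 count fell in 4041 of the copies and in 19 of the 20 subfamilies, and 17 subfamilies passed the filter on low counts. The other 3 were HY4 with 13 counts in all, U13_ with 26 and HY5 with 0, which allows up to 0.109 to 0.388 CPM depending on the library (3 counts, counting error only).

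The study compared whole testes of C57BL/6 mice at postnatal day 16 that were either *Mael*-/- or *Mael*+/-, the latter being the controls and carrying a mutant allele themselves. *Mael* encodes Maelstrom, a germ cell protein of the piRNA pathway, which silences transposons. From each extract, made in the presence of cycloheximide, total RNA was sequenced after ribosomal RNA depletion and ribosome footprints were sequenced after digestion with micrococcal nuclease. Each of the 4 groups (*Mael*+/- RNA, *Mael*-/- RNA, *Mael*+/- footprints and *Mael*-/- footprints) held 3 biological replicates, 12 libraries in all. Levels are given as CPM, the counts scaled to a gene total of 1e6 per library, after TMM scaling of genes within each assay.

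Gene counts came to between 13697267 and 27462358 per RNA library and between 7609932 and 13233565 per footprint library. *Mael* itself lay between 143.5 and 218.6 CPM in *Mael*+/- RNA and between 0 and 0.0991 CPM in *Mael*-/- RNA, as the labels imply. All 19 tissue markers found in the table had counts, and the 2 liver markers *Alb* and *Apoa2* summed to 0.801 to 1.99 CPM in RNA, against 4804 to 5505 CPM for the 4 Sertoli cell markers *Sox9*, *Wt1*, *Amh* and *Clu*. The small structural RNA repeats took 36.8 to 46.2% of all repeat counts in the RNA libraries and 22.8 to 27.1% in the footprint libraries.

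None of these RNAs encodes a protein. The spliceosomal RNAs U1, U2, U4, U5 and U6 form the core of the particles that remove introns, U7 directs the 3′ end cutting of histone mRNAs, and U3, U8, U13, U14 and U17 are nucleolar RNAs that act on the precursor of ribosomal RNA. 7SK holds the elongation kinase P-TEFb in an inactive particle, 7SL is the RNA of the signal recognition particle, which brings ribosomes to the endoplasmic reticulum, and the Y RNAs bind the Ro60 and La proteins. The 4.5S RNA and BC1 are found in rodents, and BC1, which arose from a tRNA, is best known from neurons. Most are present in the genome as many near copies, largely pseudogenes, with 6747 copies of BC1_Mm. The annotation lists only 5 copies of U8, 4 of U14, 3 of HY4 and 1 of HY5.

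The table gives no coordinates for its repeat copies, so the sequences shown are those of the annotated RefSeq genes (assembly GRCm38.p6, the mm10 coordinates), not of the counted copies. A gene was matched to 16 of the 17 tested subfamilies (28 genes). Capitals mark bases that lie in a 30-base window, about the length of a footprint, found at only 1 place in the genome. Lower case marks bases for which each such window also matches elsewhere. The U1 gene *Rnu1b1* (chr3:96359953-96360117, minus strand) is shown first, as an RNA whose counts fell in different copies in RNA and footprints and which short reads cannot tell from its copies.
Rnu1b1: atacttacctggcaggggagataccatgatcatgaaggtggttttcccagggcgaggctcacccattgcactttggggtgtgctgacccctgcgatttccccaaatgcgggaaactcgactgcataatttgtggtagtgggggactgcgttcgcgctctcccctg

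*Rnu1b1* had no 30-base window found at a single place, and its whole sequence was found at 2 places.

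The Y RNA genes are shown because their sequences were mostly single-place: *Rny1* (chr6:47788070-47788180, minus strand, HY1) and *Rny3* (chr6:47781624-47781724, plus strand, HY3).
Rny1: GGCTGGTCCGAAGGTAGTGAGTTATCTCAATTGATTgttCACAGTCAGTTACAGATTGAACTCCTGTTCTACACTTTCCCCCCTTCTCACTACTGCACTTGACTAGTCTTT
Rny3: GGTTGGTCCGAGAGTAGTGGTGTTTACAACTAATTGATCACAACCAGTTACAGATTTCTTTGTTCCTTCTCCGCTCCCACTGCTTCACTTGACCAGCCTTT

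Of their 30-base windows, 61.0% in *Rny1* and 75% in *Rny3* were found at 1 place, and all of their 75-base windows were. Reads of the RNA libraries were up to 75 bases long.

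The last set holds 7SK, the most abundant of these RNAs in the RNA libraries, and the 2 rodent RNAs, which differed in opposite directions between assays: *Rn7sk* (chr9:78175302-78175633, minus strand, 7SK, bases 33 to 332 of 332), *Rn4.5s* (chr6:47654921-47655094, minus strand, 4.5SRNA) and *Bc1* (chr7:144914470-144914623, plus strand, BC1_Mm).
Rn7sk: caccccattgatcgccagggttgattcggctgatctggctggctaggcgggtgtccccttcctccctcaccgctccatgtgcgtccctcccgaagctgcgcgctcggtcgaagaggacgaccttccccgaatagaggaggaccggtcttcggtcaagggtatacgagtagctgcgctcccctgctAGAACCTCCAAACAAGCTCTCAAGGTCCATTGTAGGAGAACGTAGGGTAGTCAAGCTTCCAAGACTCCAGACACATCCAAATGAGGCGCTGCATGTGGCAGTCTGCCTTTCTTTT
Rn4.5s: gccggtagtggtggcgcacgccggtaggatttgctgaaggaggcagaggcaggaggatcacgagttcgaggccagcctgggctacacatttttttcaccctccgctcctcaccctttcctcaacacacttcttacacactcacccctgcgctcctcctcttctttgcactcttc
Bc1: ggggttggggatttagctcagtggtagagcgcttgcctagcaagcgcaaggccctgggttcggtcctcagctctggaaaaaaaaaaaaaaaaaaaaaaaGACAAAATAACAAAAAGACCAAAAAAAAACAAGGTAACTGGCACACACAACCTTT

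In *Rn7sk* the single-place windows covered bases 218 to 332 (26.7% of 30-base windows), and in *Bc1* they covered bases 100 to 154, downstream of the tRNA-like part and most of the A-rich tract (20.8%). *Rn4.5s* had none, and its whole sequence was found at 11 places. Counts of the lower-case stretches depend on how reads with several matches were counted, which the sources used here do not give.

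To ask which of these RNAs were recovered with the ribosome-protected fragments, footprints were compared with RNA over the 12 libraries. All 17 tested subfamilies passed the test (edgeR quasi-likelihood, adjusted p below 0.05), where 63.1% of all 1148 repeat subfamilies did. Footprint levels were higher for 13 of them (background 50.3%) and lower for 4 (background 12.7%). For each of the 17 the 6 footprint libraries did not overlap the 6 RNA libraries. How many of all subfamilies were separated in this way was not counted, so the separation cannot be called particular to these RNAs. The median log2 difference of the 17 was 5.49, beside 0.46 over all repeat subfamilies. The 57 tested tRNA subfamilies, the most similar class, were all higher in footprints with a median of 7.66.

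**Figure D1:**
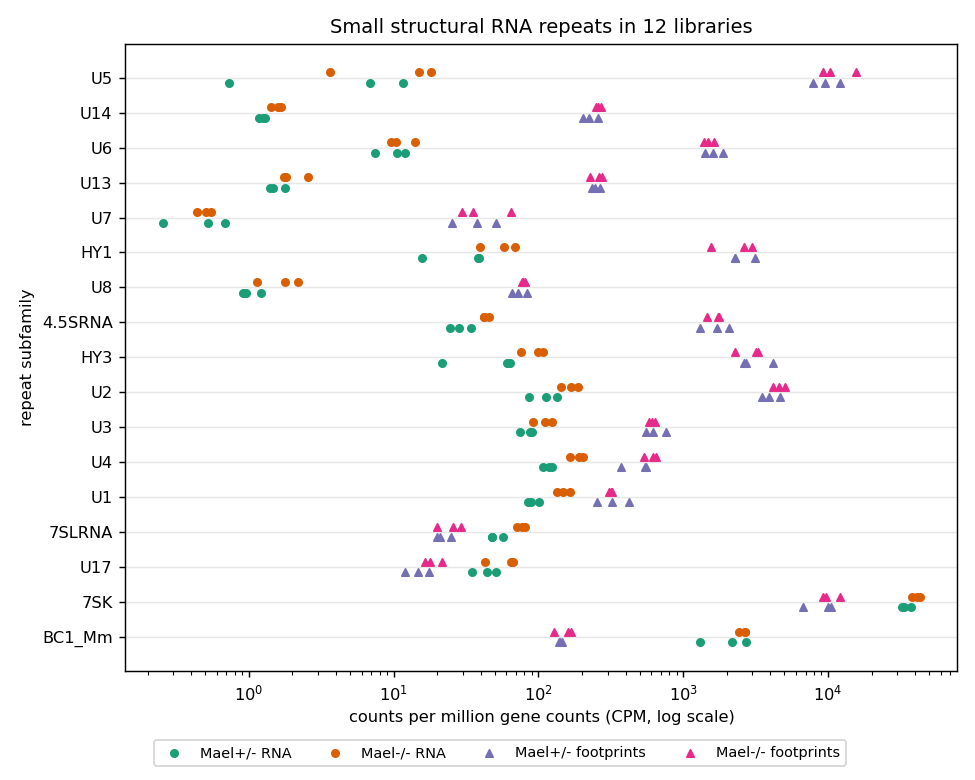
Level of each subfamily in each of the 12 libraries, in CPM on a log axis, with RNA libraries as circles and footprint libraries as triangles, coloured by genotype. For 13 subfamilies the triangles lie to the right of the circles, with U5 the farthest apart, and for 7SK, BC1_Mm, 7SLRNA and U17 they lie to the left.

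U5 RNA, which aligns the exons during splicing, showed the largest difference. It stood at 11.6, 0.732 and 6.84 CPM in *Mael*+/- RNA and at 15.1, 18.1 and 3.61 CPM in *Mael*-/- RNA. In footprints it stood at 12134, 9530 and 7910 CPM (*Mael*+/-) and at 9257, 10373 and 15688.5 CPM (*Mael*-/-). Every footprint library was thus far above every RNA library, while the RNA libraries themselves differed by up to 24.7-fold, on 20 to 365 counts each. The difference was 10.26 on the log2 scale (SE 0.51, adjusted p = 1.22e-15), 1227-fold, and ranked 9 of the 1148 repeat subfamilies. U5 took 25.7 to 37.0% of the footprint counts of all small structural RNA repeats.

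U6, the catalytic RNA of the spliceosome, stood at 11.9, 7.43 and 10.6 CPM in *Mael*+/- RNA and at 13.97, 10.5 and 9.59 CPM in *Mael*-/- RNA, against 1408 to 1892 and 1386 to 1621 CPM in the footprints of the same genotypes. The difference was 7.20 (SE 0.18, adjusted p = 5.88e-22), 147-fold. U2, which pairs with the branch point, lay between 86.2 and 189 CPM in the RNA libraries and between 3512 and 5064 CPM in the footprint libraries (4.99, SE 0.16, adjusted p = 1.21e-19), 31.7-fold. The remaining spliceosomal RNAs differed less. U4, which pairs with U6 before activation, differed by 1.88 (SE 0.13, 3.68-fold), and U1, which recognises the 5′ splice site, by 1.46 (SE 0.13, 2.76-fold), with U1 at 84.5 to 165 CPM in RNA and 255.4 to 419.4 CPM in footprints. U7 was 81.9-fold higher in footprints (6.36, SE 0.26), on 7 to 18 counts per RNA library.

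Among the nucleolar RNAs, the box C/D RNAs U14, U13 and U8 were far higher in footprints and the H/ACA RNA U17 was lower. U14 lay between 1.17 and 1.67 CPM in RNA and between 204 and 271 CPM in footprints (7.45, SE 0.16, adjusted p = 2.95e-23). U13, which lay between 1.39 and 2.58 CPM in RNA and between 228 and 274 CPM in footprints, differed by 7.14 (SE 0.16, 141-fold). U8 differed by 5.87 (SE 0.17, 58.3-fold). U3, the most abundant of these RNAs per length in RNA libraries, differed by 2.71 (SE 0.13, 6.56-fold). U17 lay between 34.5 and 67.1 CPM in RNA and between 11.9 and 21.7 CPM in footprints, 3.03-fold lower (−1.60, SE 0.15, adjusted p = 1.31e-09).

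Of the Y RNAs, HY1 and HY3 were higher in every footprint library than in any RNA library, and HY4 and HY5 had too few counts to be tested. HY1 stood at 38.3, 15.8 and 38.7 CPM in *Mael*+/- RNA and at 58.2, 69.1 and 39.8 CPM in *Mael*-/- RNA, against 1547 to 3151 CPM in footprints. HY3 stood at 61.0, 21.5 and 63.6 CPM and at 99.7, 108 and 75.3 CPM in the same RNA groups, against 2280 to 4163 CPM in footprints. The differences were 59.8-fold (5.90, SE 0.24) and 44.8-fold (5.49, SE 0.24). In both Y RNAs the second *Mael*+/- RNA library was the lowest and its footprint partner the highest.

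The other cytoplasmic and nuclear RNAs split. The 4.5S RNA was 47.3-fold higher in footprints (5.56, SE 0.16, adjusted p = 1.10e-20), with 24.5 to 45.6 CPM in RNA and 1308 to 2064 CPM in footprints. 7SK had 37091.6, 32523.5 and 33435.8 CPM in *Mael*+/- RNA and 38089.9, 42880.5 and 40916.2 CPM in *Mael*-/- RNA, against 6695 to 12047 CPM in footprints, 3.86-fold lower (−1.95, SE 0.14, adjusted p = 8.37e-12). It made up 91.2 to 94.6% of the counts of these repeats in RNA and 23.0 to 31.6% in footprints. 7SLRNA, although part of a particle that binds ribosomes, was 2.66-fold lower in footprints (−1.41, SE 0.13, adjusted p = 6.97e-10), with 47.8 to 80.2 CPM in RNA and 19.9 to 29.0 CPM in footprints. Its genes *Rn7s1* and *Rn7s2* had no 30-base or 75-base window found at a single place. For 90% of its counts 12 copies were needed in RNA and 54 in footprints. Its value is thus that of scattered copies and need not be that of the particle's RNA.

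BC1_Mm had the lowest value of all 1148 repeat subfamilies. It stood at 2733, 1306 and 2165 CPM in *Mael*+/- RNA and 2674, 2661 and 2429 CPM in *Mael*-/- RNA. In footprints it stood at 145, 139 and 141 CPM (*Mael*+/-) and 128, 159 and 169 CPM (*Mael*-/-). The 6 footprint libraries lay close together and all below the RNA libraries, of which the second *Mael*+/- library was the lowest. The difference was −3.98 (SE 0.17, adjusted p = 3.44e-17), 15.8-fold lower. The values of 7SK, BC1_Mm and U1 changed most when the single copy with the most counts was left out, as given with the copies.

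Levels of different RNAs were compared only per length of the annotated gene (CPM per kilobase, 16 subfamilies). In RNA the order was led by 7SK (112920 CPM per kilobase) and BC1_Mm (15117), followed at a distance by U2 (743), U1 (729) and HY3 (709), which overlapped between libraries, and it ended with U8 (9.94) and U7 (7.92). In footprints the order was led by U5 (93236), then HY3 (30115.6), 7SK (29201), U2 (23113) and HY1 (22356), among which neighbours were within the range of the libraries, and it ended with U17 (81.6) and 7SLRNA (78.3). U5 was thus in place 12 of 16 in RNA and in place 1 in footprints.

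The difference between assays varied with the length of the annotated gene, which need not be that of the mature RNA. Across the 16 subfamilies with a gene, the log2 difference and the length had a Pearson correlation of −0.72 and a Spearman correlation of −0.759, as a description of 16 RNAs that share all 12 libraries. Without U5 the values were −0.73 and −0.789, and without U5 and BC1_Mm, an omission chosen after the values were seen, −0.876 and −0.868. The 8 RNAs with genes of 62 to 137 bases lay between 5.49 and 10.26 (median 6.75) and the 8 with genes of 154 to 332 bases between −3.98 and 5.56 (median 0.02), a division at 140 bases that was chosen after the values were seen. The highest value of the longer set was that of 4.5SRNA, placed there by an annotated gene of 174 bases. The correlation with GC content was weaker (Pearson −0.548), as was that with the share of 30-base windows found once (0.273). Where a subfamily had several genes, length and GC content were medians, but the window share was the highest among the genes. The window value is thus not a like measure. The part of RNA length, of read matching and of library preparation in the difference was not tested.

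**Figure D2:**
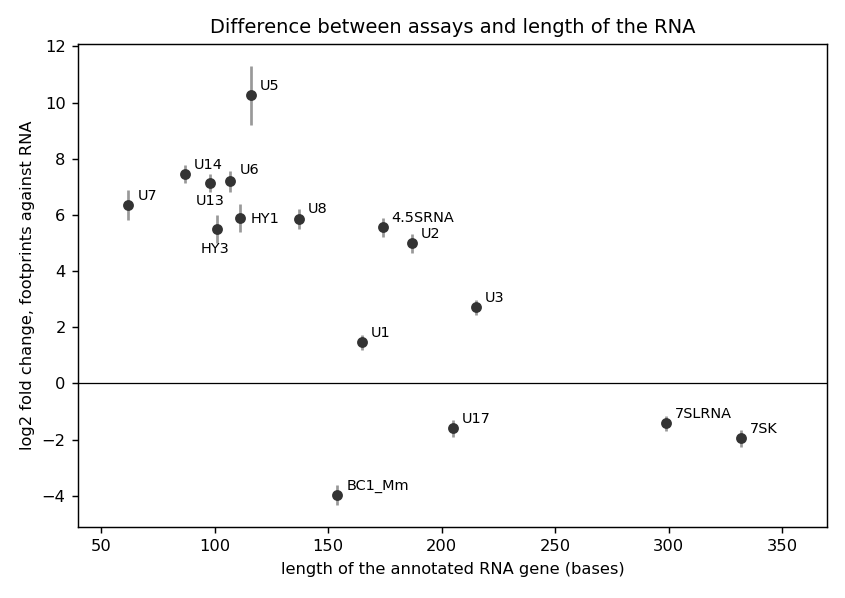
Log2 fold change of footprints against RNA for the 16 subfamilies with an annotated gene, plotted against the length of that gene in bases. The 8 RNAs with genes under 140 bases all lie at 5.49 or above, and 7SK, 7SLRNA, U17 and BC1_Mm lie below 0.

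Single copies carried very different parts of a subfamily's counts. A single copy held nearly all counts of 7SK in both assays (7SK_356, 99.8% of RNA and 98.2% of footprint counts), and likewise for HY1 (HY1_14), HY3 (HY3_4), U13 (U13_11), U7 (U7_22) and U8 (U8_4), each with at least 96.6% in RNA and 99.7% in footprints. For BC1_Mm the leading copy was the same in both assays but its share was not, and for U1 the leading copy itself differed. BC1_Mm_2860 held 90.6% of BC1_Mm counts in RNA and 34.3% in footprints, and 1 copy reached 90% of the counts in RNA where 474 were needed in footprints. U1_248 held 90.6% of U1 counts in RNA and 6.48% in footprints, where U1_253 led with 43.6% (8198 footprint counts, 52 RNA counts, a copy named after its values were seen).

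**Figure D3:**
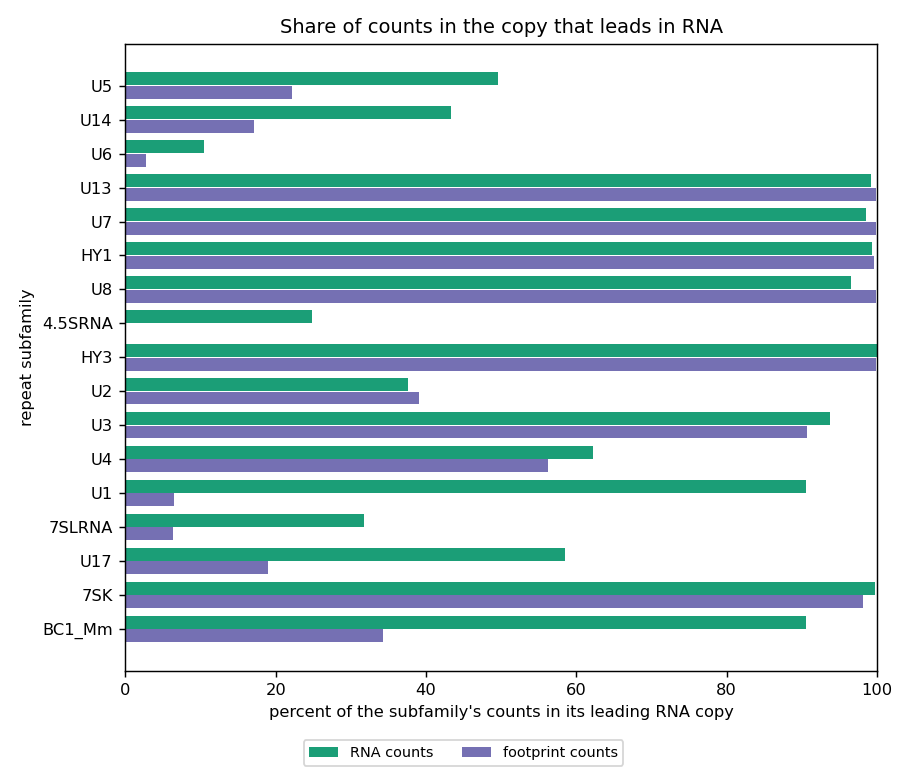
Percent of each subfamily's counts that fell in the copy with the most RNA counts, for RNA and for footprint libraries summed over 6 libraries each. The bars are nearly equal for 7SK, HY1, HY3, U13, U7 and U8, whereas for BC1_Mm and U1 the RNA bar is at 90.6% and the footprint bar at 34.3% and 6.48%.

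Without the highest copy of each subfamily, 14 subfamilies still passed the filter and all 14 passed the test, 13 of them in the same direction. 7SK was then higher in footprints (1.15, SE 0.12, adjusted p = 4.22e-10) instead of lower, BC1_Mm was lower by a smaller amount (−1.17), as was U17 (−0.65), and U1 was higher by a larger one (4.77). For U6 and the 4.5S RNA the counts were spread over many copies: 140 U6 copies in RNA and 89 in footprints were needed for 90% of the counts, and 29 and 53 for 4.5SRNA. Copies with footprint counts and no RNA count held 65.8% of the U6 footprint counts (456 of 709 copies) and 41.2% of those of 4.5SRNA. The U5 footprints were led by U5_25, which held 33.1% of them, with 207961 footprint counts and 63 RNA counts.

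Of the 528 copies that passed the filter, 520 passed the test between assays, where 84.3% of all tested repeat copies did. Higher in footprints were 486 (background 43.8%) and lower were 34 (background 40.5%). A copy could pass the filter on its footprint counts alone, and its direction was then fixed by the filter. In the RNA libraries alone 100 copies passed the filter, and in the footprint libraries alone 427. The counts of copies by direction therefore add no test of their own. All 164 U6 copies and all 12 U5 copies were higher, as were 125 of 128 copies of 4.5SRNA and 42 of 45 of U1. BC1_Mm was mixed, with 11 higher and 13 lower of 24, and 7SLRNA had 2 higher and 7 lower of 12. Copies of a subfamily share sequence and can share reads, so they are not independent of each other.

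To ask whether loss of *Mael* changed the RNAs themselves, *Mael*-/- was compared with *Mael*+/- in the 6 RNA libraries. None of the 17 subfamilies passed the edgeR test (0, where 0.898% of all tested subfamilies did), although 9 had an unadjusted p under 0.05 (5.57% of all). DESeq2 called 2 (U1 and U4), and 14 of all 1114 subfamilies. With limma voom and library weights 6 were called (4.5SRNA, 7SK, 7SLRNA, HY3, U1 and U4), and 33 of all 1114. The log2 difference was above 0 for all 17, as it was for 69.8% of all subfamilies, with a median of 0.58 beside 0.10. The tRNA subfamilies were shifted likewise, with 34 of 38 above 0 and a median of 0.40. For 10 of the 17 every *Mael*-/- library lay above every *Mael*+/- library (background 9.43%), and for 0 below (background 1.62%).

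The smallest adjusted p values were those of U1 and U4. U1 stood at 89.5, 100.1 and 84.5 CPM in *Mael*+/- RNA and at 165, 148 and 135 CPM in *Mael*-/- RNA (log2 difference 0.71, SE 0.17, adjusted p = 0.0701). U4 stood at 119, 108 and 123 CPM and at 190, 203 and 164 CPM (0.67, SE 0.17, adjusted p = 0.0836). The groups did not overlap in either RNA. For HY3 and HY1, whose levels are given above, the differences were 0.95 (SE 0.30, adjusted p = 0.239) and 0.85 (SE 0.29, adjusted p = 0.327), and the *Mael*-/- libraries were again all higher, by little in the case of HY1.

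7SLRNA stood at 47.8, 56.7 and 47.8 CPM in *Mael*+/- RNA and at 71.3, 77.2 and 80.2 CPM in *Mael*-/- RNA (0.59, SE 0.18, adjusted p = 0.238). For 7SK, with by far the most counts, the means were 34350.3 ± 2417 CPM (SD, n = 3) and 40628.9 ± 2408 CPM (SD, n = 3), a difference of 0.24 (SE 0.10, adjusted p = 0.562). Neither RNA had overlapping groups. BC1_Mm (0.32), U17 (0.43), U13 (0.41), U5 (0.93, SE 0.61), U6 (0.18), U7 (0.03) and U8 (0.69, SE 0.32) had overlapping groups.

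**Figure D4:**
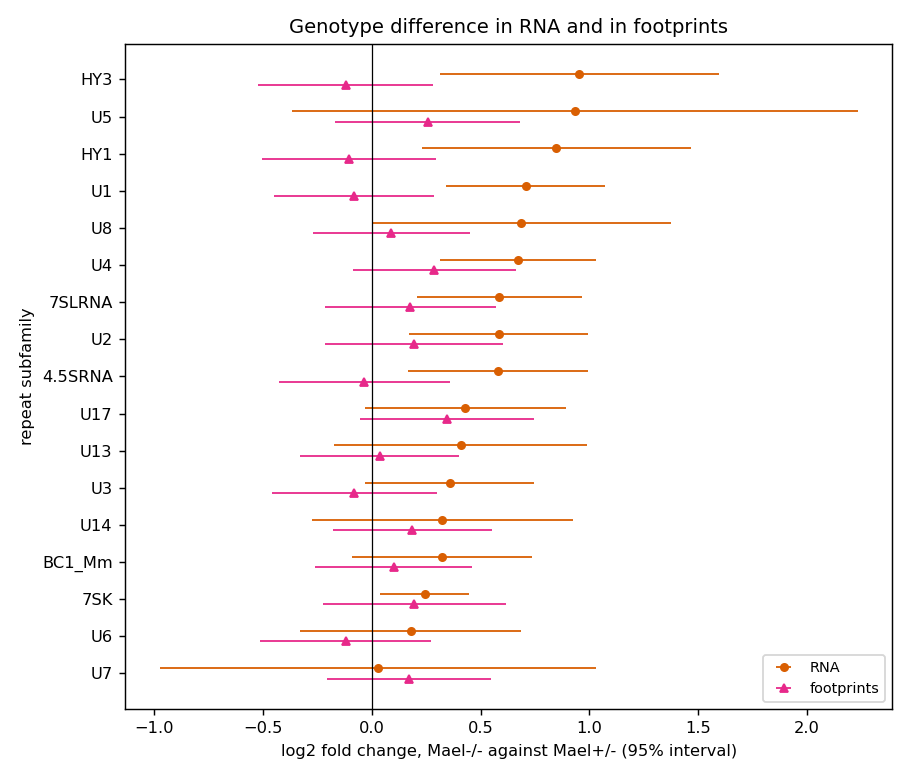
Log2 fold change of *Mael*-/- against *Mael*+/- for each subfamily with its 95% interval, circles for the 6 RNA libraries and triangles for the 6 footprint libraries. All 17 circles lie above 0, from 0.03 (U7) to 0.95 (HY3), and each triangle's interval includes 0.

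The RNA comparison depended on single libraries. The second *Mael*+/- RNA library was the lowest of the 6 for 12 of the 17 subfamilies, and the second *Mael*-/- RNA library was the highest for 9. The like shares over all subfamilies were not counted, so this cannot be called particular to these RNAs. Without the second *Mael*+/- library 16 of 17 differences were above 0, the median was 0.43 (all subfamilies 0.00), and 1 subfamily passed the test (U1, 0.78, adjusted p = 0.0305). Without the first *Mael*+/- library 2 passed, HY1 and HY3. Over all subfamilies 18 passed without the second *Mael*+/- library and 15 without the first. The peritubular markers *Acta2* and *Myh11* also differed in RNA, with a sum of 790.1 to 825 CPM in *Mael*+/- and 881.7 to 931.4 CPM in *Mael*-/- libraries. The spermatocyte markers *Sycp1*, *Sycp3*, *Ddx4* and *Dazl* summed to 977.1 to 2245.6 and 998.1 to 1354.7 CPM, each of them highest in the first *Mael*+/- library. The part of both marker sets in the result was not tested, and in whole testis fewer cells of a type and less RNA per cell cannot be told apart.

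**Figure D5:**
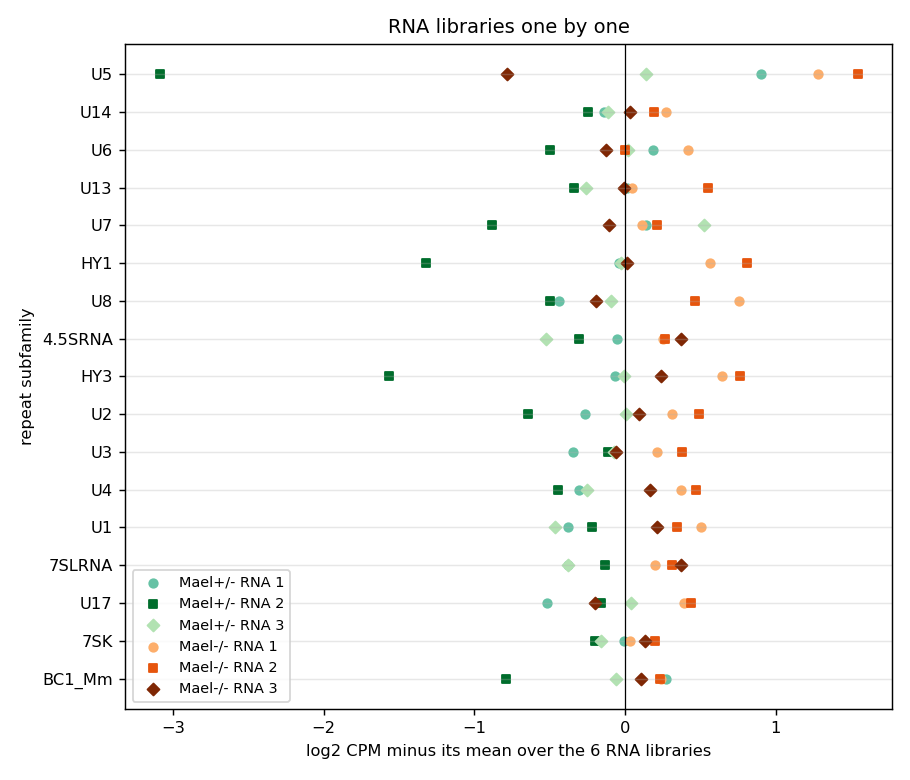
Log2 CPM of each subfamily in each of the 6 RNA libraries, minus its mean over the 6. The second *Mael*+/- library is the leftmost point for 12 of 17 subfamilies, and the spread is widest for U5.

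Of 100 single copies tested in RNA, 4 passed (background 1.62%, higher 1.51%), all of them higher in *Mael*-/- testes. The difference was positive for 82 of the 100, a share that was not counted over all copies. The median was 0.40, beside 0.12 over all tested copies. The 4 that passed were 7SLRNA_415 (1.04, SE 0.24, adjusted p = 0.0146), 4.5SRNA_169 (0.93, SE 0.23, adjusted p = 0.0303), U1_248 (0.78, SE 0.20, adjusted p = 0.0409) and U4_33 (0.78, SE 0.20, adjusted p = 0.0418), of which 7SLRNA_415, 4.5SRNA_169 and U4_33 were named after their values were seen. U1_248 stood at 77.5, 90.7 and 73.0 CPM in *Mael*+/- and at 152, 137 and 125 CPM in *Mael*-/- RNA, with no overlap, and without it U1 as a whole differed by 0.03. Likewise, U3 without its highest copy differed by −0.13 instead of 0.36. None of the 4 passed without the first or without the second *Mael*-/- RNA library. Without the first *Mael*+/- library 10 of 127 copies passed, where 520 of all 22644 did.

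The same comparison of genotypes was made in the 6 footprint libraries. With edgeR, 0 of 17 subfamilies passed (background 1.82%), 0 had an unadjusted p under 0.05 (7.46% of all), and DESeq2 and limma voom also called 0. The differences were above 0 for 11 of 17 (73.8% of all) with a median of 0.10, beside 0.13 over all subfamilies. For 0 of them were the groups apart (background 11.3% higher, 1.72% lower). The intervals of subfamilies given here use a spread shared by all subfamilies, not each one's own. The U5 footprints differed by 0.26 with an interval of −0.17 to 0.68, those of 7SK by 0.20 (−0.23 to 0.62) and those of U1 by −0.08 (−0.45 to 0.29). A change of the size seen for U1 in RNA therefore lay outside the interval for U1 in footprints, but the U1 sums rest on different copies. U1_248 held 90.6% of the U1 counts in RNA and 6.48% in footprints. In footprints this copy differed by 0.68 (0.03 to 1.33, edgeR adjusted p = 0.903), beside 0.78 in RNA. The U1 sums thus do not show that the difference was absent from footprints.

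Whether the genotype difference itself varied between the assays was tested as an interaction. No subfamily passed (0 of 17, background 0%). The interaction was below 0 for 16 of the 17, where 54.4% of all subfamilies were above 0. The median was −0.39, beside 0.03 over all subfamilies and −0.42 over the 57 tRNA subfamilies. An unadjusted p under 0.05 was found for 4 (3.14% of all): U1 (−0.79, SE 0.26, adjusted p = 0.809), HY3 (−1.07), HY1 (−0.95) and 4.5SRNA (−0.62). For U1 the leading copy differed between the assays. DESeq2 called 0 and limma voom 1, U1, and 2 of all 1148 subfamilies.

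Of 427 copies tested in footprints, 1 passed (background 0.817%, lower 0.254%). It was U2_798, named after its values were seen, with 28, 40 and 251 counts in *Mael*+/- and 12, 20 and 5 counts in *Mael*-/- footprints and 0 in RNA (−3.22, SE 0.61, adjusted p = 0.00575). Most of its *Mael*+/- counts came from the third library, and without that library the difference was −1.77 (adjusted p = 0.0657). DESeq2 did not call it.

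The protein partners of these RNAs and the machinery that makes them were followed in 9 gene lists. Between genotypes 0 of 115 genes passed in RNA (edgeR, background 0.116%, 1 with an unadjusted p under 0.05, DESeq2 0) and 0 of 114 in footprints (background 0.0593%, 3 with an unadjusted p under 0.05, DESeq2 0). The members farthest from 0 in RNA included *Srp54a* (0.41, adjusted p = 0.848), which has near-identical copies in the genome, *Snrpd3* (−0.29), an Sm ring protein, and *Larp7* (−0.24), which binds the 3′ end of 7SK. In footprints they included *Ppih* (−0.60), a cyclophilin of the U4/U6 particle, *Lsm7* (−0.45) and *Fbl* (−0.29), the methyltransferase of box C/D particles.

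Between footprints and RNA 84 of 116 partner genes passed (background 68.2%), 40 higher (background 28.3%) and 44 lower (background 39.9%). These values compare coding sequence footprints with reads over the whole mRNA. Among U1 and U2 particle proteins 10 of 15 were higher and 2 lower, led by *Sf3a2*, with 20.8 to 27.7 CPM in RNA and 102.5 to 125.3 CPM in footprints (2.32, SE 0.08). Among the Sm and LSm ring proteins 3 of 17 were higher and 11 lower, with *Snrpd3* at 2.74 (SE 0.11) and *Lsm7* at −3.54 (SE 0.13), and *Snrpn* had 0 counts in every RNA library and 23 to 56 in the footprint libraries. Of 16 U4/U6 and U5 proteins 5 were higher, among them *Prpf8* (0.79), the scaffold that holds U5 at the catalytic centre. Lower were 7, led by *Ppih* (−5.00, SE 0.18), on 3 to 17 counts per footprint library.

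Of the 7SK partners 3 of 7 were higher, including *Cdk9* (0.49), the kinase of P-TEFb, and 1 was lower, *Larp7* (−0.86, SE 0.11). The signal recognition particle list had 2 of 8 higher (*Srp68*, 0.83) and 5 lower, among them *Srp9*, with 55.2 to 70.6 CPM in RNA and 0 to 1.07 CPM in footprints. The lowest was *Srp54a* (−10.1), the gene with near-identical copies, with 127 to 273 counts per RNA library and 0 in every footprint library. The part of read matching in these values was not tested. The La protein gene *Ssb* was higher (1.07, SE 0.09) and the Ro60 gene *Trove2* lower (−0.41). In the remaining lists 9 of 27 genes of snRNA synthesis were higher and 4 lower (*Ints9* of the Integrator complex, 1.91), 1 of 4 box C/D proteins was higher (*Nop58*, 0.38) and 2 were lower (*Fbl*, −1.02), and 6 of 20 RNA polymerase III genes were higher (*Gtf3c1*, 0.48) and 11 lower (*Maf1*, the repressor of the polymerase, −1.61, SE 0.06).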

How the data were processed

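Whole testes of *Mael*-/- and *Mael*+/- mice gave 6 RNA and 6 footprint libraries, 3 per group. Per the labels and the study's methods, extract with 2.5 µg of RNA went into stranded, rRNA-depleted libraries, and extract with 20 µg of RNA was digested with 5 units of micrococcal nuclease, with inserts of 28 to 34 nucleotides taken as footprints. For the footprint libraries, but not for the RNA libraries, the authors describe clipping of the linker, trimming of the random tag and removal of ribosomal DNA reads (Bowtie 1.2.2). Reads of both assays were aligned to mm10 (STAR 2.6.0c) and counted with featureCounts (Subread 1.6.4). The entire mRNA was used in RNA libraries but the coding part alone in footprint libraries. The deposited table holds raw counts for genes and repeat copies. How reads with several matches and strands were counted in repeats, and whether duplicates were collapsed, is not given in the sources used here. The deposited DESeq2 tables (log2 fold changes and p-values of the authors' own comparisons) were not used.

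Counts were summed by repeat name. All subfamilies, and separately all copies and all genes, were tested with edgeR 4.0.16 (quasi-likelihood F-test, R 4.3.3), with gene totals times TMM factors within each assay as library sizes and Benjamini-Hochberg adjustment over everything tested. Footprints were set against RNA as the mean over both genotypes. Tests were checked on simulated data. DESeq2 1.42.0, limma 3.58.1 (voom with library weights), other scalings and filters, single libraries left out and blocks were alternatives. RNA and footprint libraries with the same label number came from the same extract, and their deviations from the group means correlated (r = 0.753, 0.591 and 0.62 in *Mael*+/-, 0.227, 0.207 and 0.205 in *Mael*-/-, over 14374 genes). Total counts per library set the precision. The p-values rest on 3 replicates per group, with each spread drawn toward a trend over everything tested. For subfamilies between genotypes in footprints, edgeR used the shared trend alone. A read in a footprint library is a fragment of the selected length. That it came from a ribosome was not measured.

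All subfamilies of the 4 classes were described. Named copies were those with the most counts in each subfamily (at least 100) and the 10 with the most counts overall. Partner genes were those called, at most 4 in each direction per list, or otherwise the one farthest from 0. The members, lists and tests were chosen with earlier results of these data known. Windows of 30 and 75 bases were matched to both strands of GRCm38.p6 in Python 3.11.15. Sequences of some of the RNAs are not reported here.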

Additional observations from a re-analysis of the deposited data

How the results depend on the processing

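All 17 subfamilies passed between footprints and RNA in each alternative that keeps every copy and the filter, and 14 did without the highest copy of each, where U7, U8 and U13 no longer passed the filter and the difference of 7SK reversed to 1.15. Between genotypes in RNA, where 0 passed, DESeq2 called 2, gene and repeat totals as library size 2, limma voom 6 and the replicate block 7, and leaving out 1 library gave 0 to 2. Over all subfamilies the first 4 of these settings called 14, 14, 33 and 39. For the interaction limma voom called 1. Of single copies, a mean count of at least 50 left 132 calls among 133 tested between assays, in place of 520 among 528. Over all copies 955 of 1006 passed under that limit. In RNA, where 4 copies passed, it left 0, the replicate block gave 7, and leaving out 1 library 0 to 10. Over all copies these settings called 4 of 1419, 342 of 16710, and 195 to 520. In footprints, where 1 passed, DESeq2 and the mean count of 50 gave 0, the replicate block 2, and leaving out 1 library 0 to 2. Over all copies these settings called 41, 5, 48, and 43 to 63. Fewer copies were tested under the higher count limit. The cause of the other changes was not tested.

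The replicate block treats the same number in both genotypes as a pair. Deviations of same-numbered libraries correlated at 0.195, -0.0117 and 0.134 in RNA and 0.0685, 0.186 and 0.041 in footprints, and not every library correlated best with its own number, so the numbers were not taken as pairs. The labels do not say whether a number marks a shared litter or day. The Leydig cell marker *Star* lay at 43.8, 96.7 and 140.9 CPM in *Mael*+/- RNA and at 36.4, 88.0 and 131.5 CPM in *Mael*-/- RNA under the numbers 1, 2 and 3, so some genes varied together with the number. The block on the shared extract changed no call of a subfamily or copy between assays or in the interaction, and changed 8 of 116 partner genes. Of 4437 alternative values for 300 results, 4351 kept the side of the threshold and either kept direction or changed sign by less than the standard error of the main fit. Exclusion of copies overlapping exons was not run, as the table has no coordinates for repeats, and neither was a test of all copies without a filter. Depth limits U5, U7, U8, U13 and U14 in RNA, which had few counts there.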
